A study of Homo sapiens with 2 samples.

Results

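The genes described here build and cut the extracellular matrix: the collagens, the matrix metalloproteinases (MMP), and the ADAM and ADAMTS proteases. They were chosen by name alone, as all genes called COL, digits, A and digits, or MMP, ADAM or ADAMTS and digits, with no hyphen. The reference holds 105 such protein-coding genes, of which 21 had at least 1 peak in the authors' list, among 9267 genes with a peak in all. The other 84 had no row and were counted as having no peak. YTHDF3 is a protein of the cytoplasm that binds RNA carrying N6-methyladenosine (m6A), and RNA held by it was pulled down with an antibody from untreated KYSE30 cells, an esophageal squamous carcinoma line. The data are 1 such RNA immunoprecipitation (RIP) library, 1 library of input RNA, and a list of regions, called peaks, with more signal in RIP than in input. Replicates, a control antibody and cells without YTHDF3 are not part of the data used here, so no value below has a replicate error, and binding by YTHDF3 cannot be told apart from nonspecific recovery. The read totals behind the peaks are unknown, and fold enrichments, p-values and adjusted p-values are the authors' own.

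Collagens are trimers whose chains can be coded by separate genes. Fibrillar types such as collagen I and III give connective tissue its strength, type IV forms the sheet of basement membranes under epithelia, and transmembrane type XVII anchors basal keratinocytes to that sheet. MMPs are zinc proteases that degrade matrix proteins, either secreted or held at the cell surface. ADAMs are membrane proteases that release the outer parts of other membrane proteins, and some of them have lost the catalytic site. ADAMTS enzymes are secreted and cut proteoglycans, procollagens and other matrix proteins. Carcinoma cells can make some of these genes' products themselves, while fibroblasts make most of the fibrillar collagens.

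A peak was listed for 20.0% of the matrix genes (21 of 105 genes, exact 95% interval 12.8 to 28.9, an interval for counting error alone that takes genes as independent), beside 40.1% of all 19974 protein-coding genes. With only regions free of overlap with any peak listed for another gene, the shares were 20.0% of the matrix genes (21 of 105) and 35.3% of all protein-coding genes. With an adjusted p under 0.05 the count was 15 genes (14.3%) against 34.0% of all genes. The difference was described and not tested, since members of gene families are not replicates. A list of peaks does not show which genes the cells express, so a gene without a peak may be silent, expressed at a low level, or expressed and not enriched, and these cannot be told apart.

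**Figure D1:**
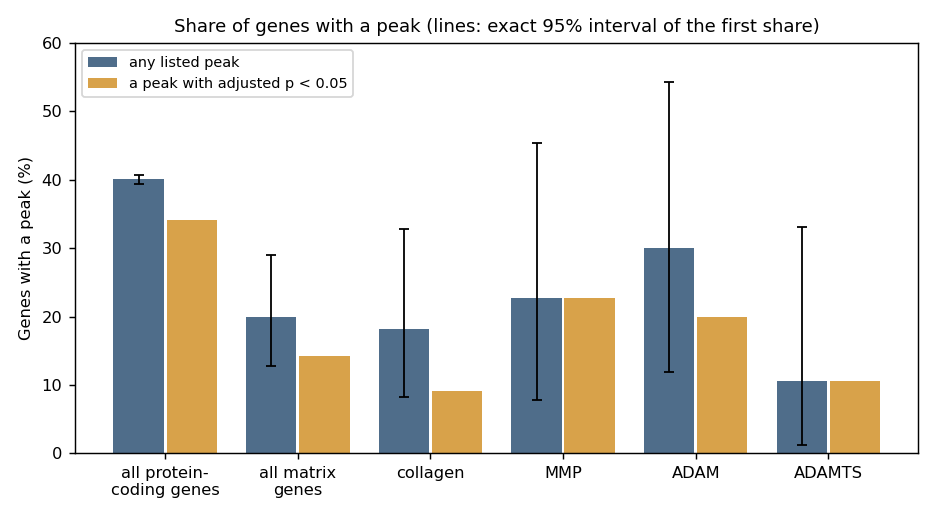
Percent of genes with a listed peak (blue, with the exact 95% interval) and with a peak at adjusted p under 0.05 (yellow), for all protein-coding genes, the 105 matrix genes and each family. All 4 families lie below the share of 40.1% over all genes, and the interval of the ADAM and MMP families includes it.

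Matrix genes were long, with a median of 67345 bases against 24170.5 for all protein-coding genes, and the share of all genes with a peak was higher in each longer quartile of gene length. In the longest quartile of protein-coding genes, 12 of 53 matrix genes had a peak (22.6%) against 50.0% of all genes in that quartile. The shares were 20.8% (5 of 24) against 47.0% in the third quartile and 18.2% (4 of 22) against 38.9% in the second. None of the 6 matrix genes in the shortest quartile had a peak, where the share over all genes was 24.3%. The length is that of the whole gene with its introns, not of the transcript.

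**Figure D2:**
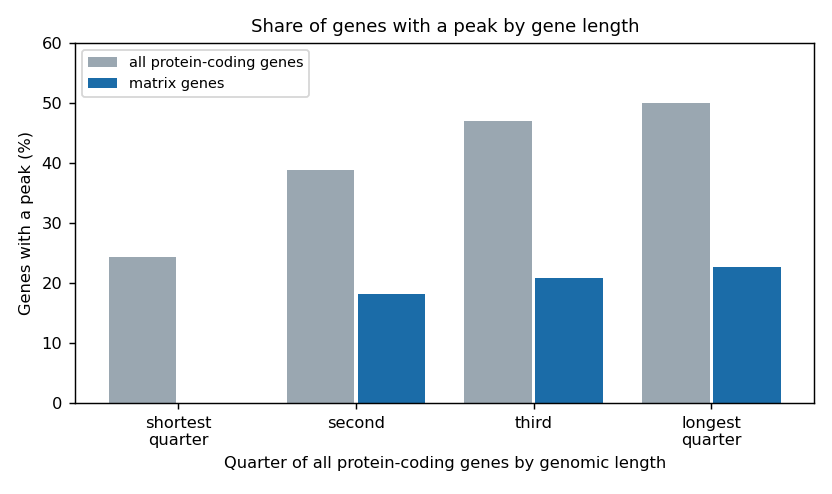
Percent of genes with a peak in each quartile of protein-coding genes by genomic length, for all genes (grey) and matrix genes (blue). The blue bars are below the grey ones in every quartile, and the shortest quartile of 6 matrix genes has no blue bar because none had a peak.

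The 21 genes had 54 peaks, with fold enrichments from 1.22 to 13.8 and a median of 4.39, where the median over all 18466 peaks was 5.02. Of the members' peaks, 50.0% (27 of 54) had an adjusted p under 0.05, beside 74.4% of all peaks. None of the 105 genes had a peak among the 10% of all peaks with the smallest p, which 7.99% of protein-coding genes had. The median over genes of the smallest p was 0.00288 for the members and 1.4e-07 for all protein-coding genes with a peak. For the best fold enrichment of a gene the median was 7.53 in both groups, with quartiles of 4.39 and 10.0 for members and 4.39 and 11.3 for all genes. When each gene was instead represented by its peak of smallest p, the median fold enrichment was 4.39 for members and 6.27 for all protein-coding genes with a peak.

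**Figure D3:**
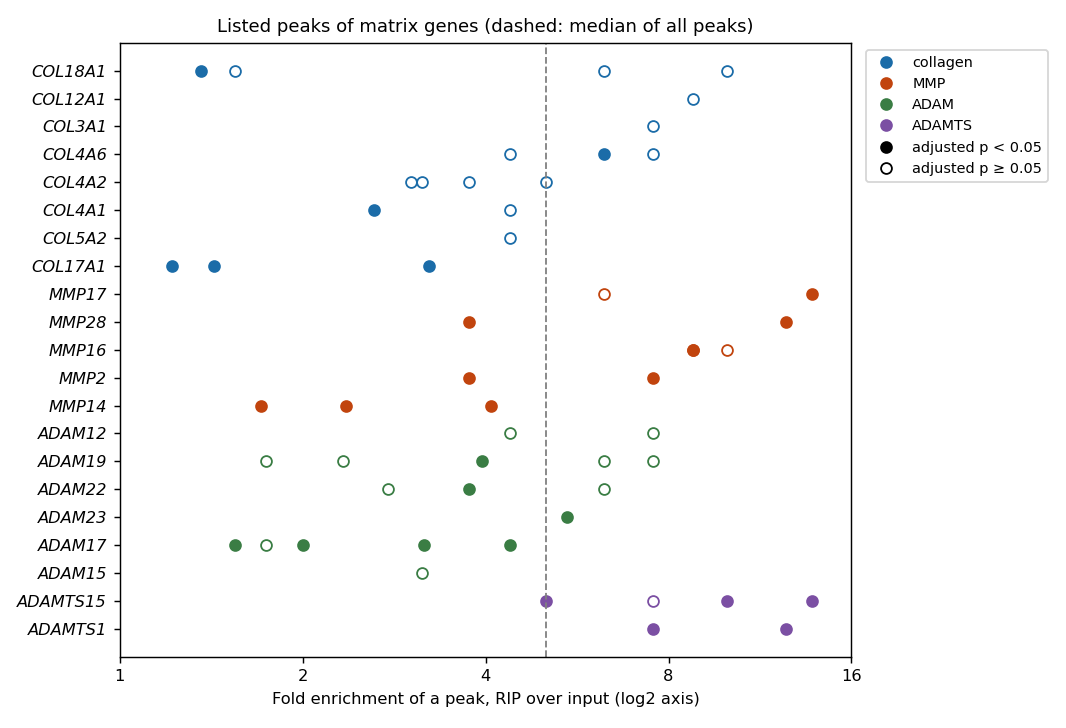
Fold enrichment (RIP over input, log2 axis) of each of the 54 peaks of the 21 matrix genes, coloured by family and filled where the adjusted p was under 0.05. The dashed line is the median of all peaks at 5.02, and ADAMTS15 and MMP17 reach the members' largest value of 13.8.

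Collagens were the largest family. Of 44 collagen genes 8 had a peak (18.2%), with 19 peaks in all, and 6 of these had an adjusted p under 0.05. Those 6 peaks belonged to COL17A1, COL4A1, COL4A6 and COL18A1.

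COL17A1, the transmembrane collagen of hemidesmosomes that squamous cells use to hold to the basement membrane, had the smallest p of any collagen. Its 3 peaks had fold enrichments of 3.23, 1.43 and 1.22, with adjusted p-values of 2.1e-05, 0.00537 and 0.0191. The strongest ran on chromosome 10 from 104036625 to 104049460. These were low enrichments with small p, and 16.2% of protein-coding genes with a peak had a lower best fold enrichment than COL17A1. Of the other transmembrane collagens, COL13A1, COL23A1 and COL25A1, none had a peak. COL7A1, which codes for the anchoring fibrils below the basement membrane, also had none.

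Basement membrane and network collagens had a peak in 3 of 9 genes: COL4A1, COL4A2 and COL4A6, each coding for a chain of type IV collagen. COL4A1 had fold enrichments of 4.39 and 2.62, with adjusted p-values of 0.148 and 0.0186. COL4A2 had 4 peaks at 5.02, 3.76, 3.14 and 3.01, and the smallest adjusted p among them was 0.0741. COL4A6 had 3, at 7.53, 6.27 and 4.39, of which the middle one alone was under the threshold (adjusted p of 0.0191) and spanned 225321 bases. COL4A3, COL4A4, COL4A5, COL8A1, COL8A2 and COL10A1 had no listed peak.

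Type IV genes lie head to head in pairs, and a pair did not share its peaks in 1 way. COL4A1 and COL4A2 start 126 bases apart on chromosome 13 and had 2 and 4 peaks. COL4A5 and COL4A6 are separated by 379 bases on the X chromosome and had 0 and 3, and COL4A3 and COL4A4, with 135 bases between them on chromosome 2, had none. The sequence between the starts of COL4A1 and COL4A2 is shown because both transcripts leave from it; it is read along COL4A2 (RefSeq, GRCh38.p14, chr13:110307158-110307283, plus strand). Capitals mark CCAAT and GGGCGG, each searched on both strands (ATTGG and CCGCCC) and found once without overlap.
COL4A1 to COL4A2: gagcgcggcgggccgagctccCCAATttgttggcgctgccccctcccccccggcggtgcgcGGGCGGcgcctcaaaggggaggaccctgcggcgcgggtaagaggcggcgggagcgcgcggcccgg
Among 34943 RefSeq promoter windows, the 126 bases before the start held CCAAT in 21.1% and GGGCGG in 34.5%, a description of letters only. No peak of either gene reached this stretch.

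The COL4A6 region under the threshold reached 14 bases past the annotated start of the gene. The 250 bases before that start are shown with those 14 in capitals (RefSeq, GRCh38.p14, chrX:108439459-108439708, minus strand). The table lists 2 starts for COL4A6, and the window around the other lies wholly inside the same region.
COL4A6: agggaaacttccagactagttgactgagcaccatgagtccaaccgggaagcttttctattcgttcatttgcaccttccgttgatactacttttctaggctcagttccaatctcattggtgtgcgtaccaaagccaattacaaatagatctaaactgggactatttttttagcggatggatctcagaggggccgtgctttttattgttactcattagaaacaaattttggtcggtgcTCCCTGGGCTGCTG

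Fibrillar collagens had a peak in 2 of 11 genes, both with a weak p. COL3A1, the collagen III chain of soft connective tissue, had a single region from 188974320 to 189010721 on chromosome 2 that covered 94.9% of the gene, enriched 7.53-fold at an adjusted p of 0.254. COL5A2, a collagen V chain on the same chromosome, had 1 peak of 4.39 with an adjusted p of 0.335. COL1A1 and COL1A2, the chains of collagen I, had no peak, nor did COL2A1, COL5A1, COL5A3, COL11A1, COL11A2, COL24A1 and COL27A1.

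Among the collagens that coat fibrils, only COL12A1 of 10 genes had a peak, enriched 8.78-fold at an adjusted p of 0.142. COL18A1, a basement membrane multiplexin whose end fragment is endostatin, had 4 peaks. The largest, at 10.0, had an adjusted p of 0.0776, while the one under the threshold had a fold enrichment of 1.36 (adjusted p of 0.0162). The others were at 6.27 and 1.55. The regions at 10.0 and 6.27 overlapped a peak of SLC19A1 on the opposite strand, and how strands were counted is not stated, so reads of the 2 genes cannot be told apart. COL15A1 and all 8 genes of the beaded filament and remaining group, with COL6A1, COL6A2 and COL6A3 among them, had no peak.

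Of 22 MMP genes kept by the name rule, 5 had a peak (22.7%), and all 5 had one with an adjusted p under 0.05. Of their 12 peaks, 9 were under that threshold, a share close to the 74.4% of all listed peaks. In the collagens it was 6 of 19 peaks (31.6%).

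Surface-anchored MMPs had a peak in 3 of 6 genes. MMP17, held by a lipid anchor, had the largest fold enrichment of the family, 13.8 with an adjusted p of 0.00389, in a region from 131841646 to 131851456 on chromosome 12 that reached within 315 bases of the 3' end of the gene. Its other peak stood at 6.27 (adjusted p of 0.335). MMP16, a transmembrane protease that can activate MMP2, had 3 peaks with fold enrichments of 10.0, 8.78 and 8.78. Of these, the one under the threshold (adjusted p of 0.00204) covered 96.9% of the gene. MMP14, the membrane protease that activates MMP2 and cuts collagen at the cell front, had 3 peaks with lower fold enrichments than those of MMP16 and MMP17: 4.08, 2.36 and 1.71, with adjusted p-values of 0.0251, 1.6e-06 and 0.00316. MMP15, MMP24 and MMP25 had no peak. An antisense RNA of the last, MMP25-AS1, had 2, at 2.93 and 6.27, and is no member under the rule. Without a stated strand setting, reads of MMP25 and of this antisense RNA cannot be told apart.

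Secreted MMPs had a peak in 2 of 16 genes. MMP28, which keratinocytes express, had fold enrichments of 12.5 (adjusted p of 0.00741) and 3.76 (adjusted p of 7.6e-08), so its smaller enrichment had the smaller p. The 2 regions together ran the length of the gene on chromosome 17 from 35756249 to 35795707. MMP2, the gelatinase that MMP14 activates, had 7.53 and 3.76, with adjusted p-values of 0.00347 and 0.0417. The 9 MMP genes clustered on chromosome 11 from 102520508 to 102955732, MMP1, MMP3, MMP7, MMP8, MMP10, MMP12, MMP13, MMP20 and MMP27, had no peak at all, and neither did the gelatinase MMP9.

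ADAM genes had a peak in 6 of 20 cases (30.0%), the highest share of the 4 families, with 17 peaks of which 7 had an adjusted p under 0.05. ADAM17, the sheddase of tumor necrosis factor and of several EGFR ligands, had 5 peaks, 4 of them under that threshold. The strongest by p was also the largest, at 4.39 (adjusted p of 1.3e-13), in a short region of 629 bases from 9488965 to 9489593 on chromosome 2, close to the 3' end. It overlapped a peak of IAH1 on the opposite strand, from which it likewise cannot be told apart. IAH1 was also listed at 4.39, with a listed p of 1.6e-14 beside 1e-14 for ADAM17. The next ADAM17 peak, at 3.17 (adjusted p of 1.5e-10), lay at the other end of the gene and spanned 18967 bases. The remaining 3 stood between 1.55 and 2.0. ADAM10, the sheddase closest to ADAM17 in function, had no peak, and nor did ADAM9 or ADAM8.

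ADAM19 also had 5 peaks, with fold enrichments of 7.53, 6.27, 3.94, 2.33 and 1.74, but only that at 3.94 was under the threshold (adjusted p of 0.00245). ADAM12, an ADAM of growing muscle and of tumor stroma, had 7.53 and 4.39, and neither passed, the second narrowly at an adjusted p of 0.0501. ADAM15 had a single peak of 3.14 with an adjusted p of 0.124. In total 4 of 12 ADAM genes with a protease site had a peak.

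Of 8 ADAM genes without a protease site, 2 had a peak, both better known as receptors of the secreted protein LGI1 in the brain. ADAM23 had 1 peak of 5.44 (adjusted p of 0.0110), inside the gene from 206481308 to 206547486 on chromosome 2. ADAM22 had 3, at 6.27, 3.76 and 2.76, and the one under the threshold, at 3.76 (adjusted p of 0.0398), covered the start of the gene and went 108 bases beyond it. The 250 bases before the annotated start are shown with those 108 in capitals, as the farthest reach of any peak past a start among the members (RefSeq, GRCh38.p14, chr7:87934001-87934250, plus strand).
ADAM22: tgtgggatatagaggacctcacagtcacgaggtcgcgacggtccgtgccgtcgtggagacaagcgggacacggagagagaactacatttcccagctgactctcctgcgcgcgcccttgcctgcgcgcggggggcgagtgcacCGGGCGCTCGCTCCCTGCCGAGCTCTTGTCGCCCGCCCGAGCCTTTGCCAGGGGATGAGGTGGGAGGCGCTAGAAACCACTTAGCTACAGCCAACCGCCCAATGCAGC
The transcript annotation behind the deposited regions is not given in the sources used here, and a start lying further upstream there would place these bases in the transcript.

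ADAMTS genes had the lowest share, 2 of 19 (10.5%). The median fold enrichment over the 6 peaks of these 2 genes, 8.765, was the highest of the 4 families. All 6 values lay on the regular spacing described below, and the ranking of families by fold enrichment was not tested. The 2 genes, ADAMTS1 and ADAMTS15, code for proteases that cut aggrecan and versican, proteoglycans of cartilage and of loose matrix. ADAMTS1 had the smallest p of the 105 genes, 2.0e-19, for a fold enrichment of 12.5 (adjusted p of 3.2e-18) in a region from 26835747 to 26844601 on chromosome 21 that covered 91.7% of this short gene. A second region, at 7.53 (adjusted p of 0.0417), covered the first 7.77%, so nearly the whole gene was listed. ADAMTS15 had 4 peaks on chromosome 11, at 7.53, 13.8, 10.0 and 5.02 in order from 5' to 3', of which the last 3 had adjusted p-values of 0.00389, 0.00347 and 0.00513. All 4 lay in the last part of the gene, from 80.0% of its length onward. ADAMTS5 and ADAMTS8, their neighbours on the same chromosomes, had no peak. The 3 genes for procollagen trimming, ADAMTS2, ADAMTS3 and ADAMTS14, the von Willebrand factor protease ADAMTS13 and all 4 of the fibrillin group were also without one.

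**Figure D4:**
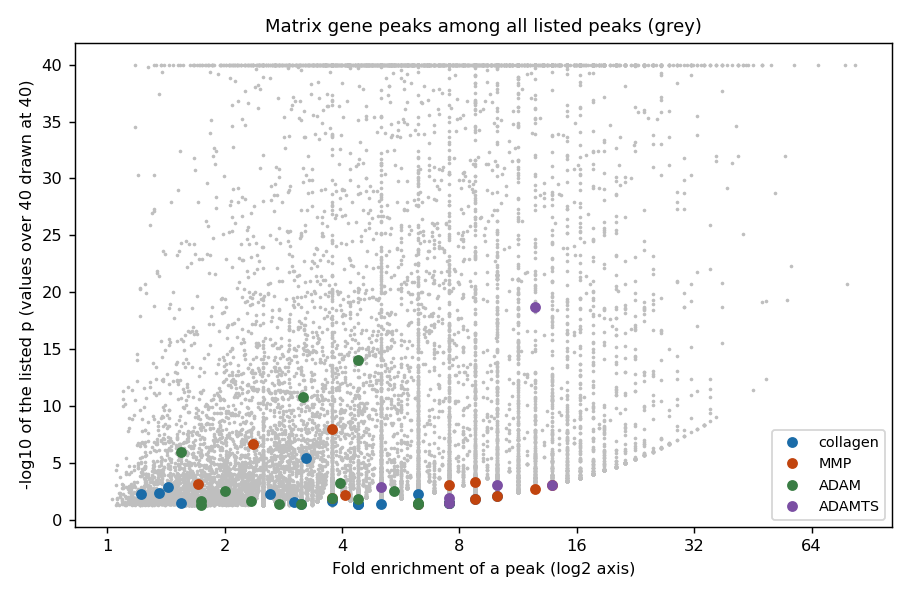
Fold enrichment (log2 axis) against the -log10 of the listed p for all peaks with a p above 0 (grey, drawn at 40 where larger) and for the members' 54 peaks in colour. Most coloured points lie along the lower edge, and the ADAMTS1 peak at 12.5 stands highest among them.

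Fold enrichment and p placed the members differently. Of the 16 members with 2 or more peaks, 5 had their smallest p in the peak with the largest fold enrichment: ADAM17, ADAMTS1, COL17A1, MMP17 and MMP2. The best peak by fold enrichment had an adjusted p under 0.05 in 9 of 21 members, whereas 77.0% of protein-coding genes with a peak had one. The ratio between a gene's largest and smallest fold enrichment had a median of 2.24 and ranged from 1.14 in MMP16 to 7.35 in COL18A1. Neither this ratio nor the count of 5 in 16 was computed over all genes. Whether they are particular to the members was therefore not tested.

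Many values were repeated between unrelated genes. Of the members' peaks, 28 of 54 (51.9%) had a fold enrichment that was a whole multiple of 1.2546 within the rounding of the list, beside 50.3% of all peaks. By family these were all 6 ADAMTS peaks, 9 of 12 MMP peaks, 8 of 19 collagen peaks and 5 of 17 ADAM peaks. The median fold enrichments of these families, 8.765, 6.9, 4.39 and 3.76, fell in the same order. The members' peaks at 7.53 in ADAM12, ADAM19, ADAMTS15, COL3A1 and COL4A6 all carried the p of 0.0331 and adjusted p of 0.254 that 599 peaks of the list share. The value of 8.78 with a p of 0.0166 in COL12A1 and in 1 of the MMP16 peaks was shared by 385 peaks, and that of 13.8 in ADAMTS15 and MMP17 by 129. The best fold enrichment of COL18A1 and MMP16, 10.0 with a p of 0.00813, was shared by 256 peaks. That of MMP28, 12.5 with a p of 0.0019, was shared by 166. For such genes a fold enrichment does not rank one above another. Read counts per peak were not used here, so whether a low input underlies the shared values was not tested.

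**Figure D5:**
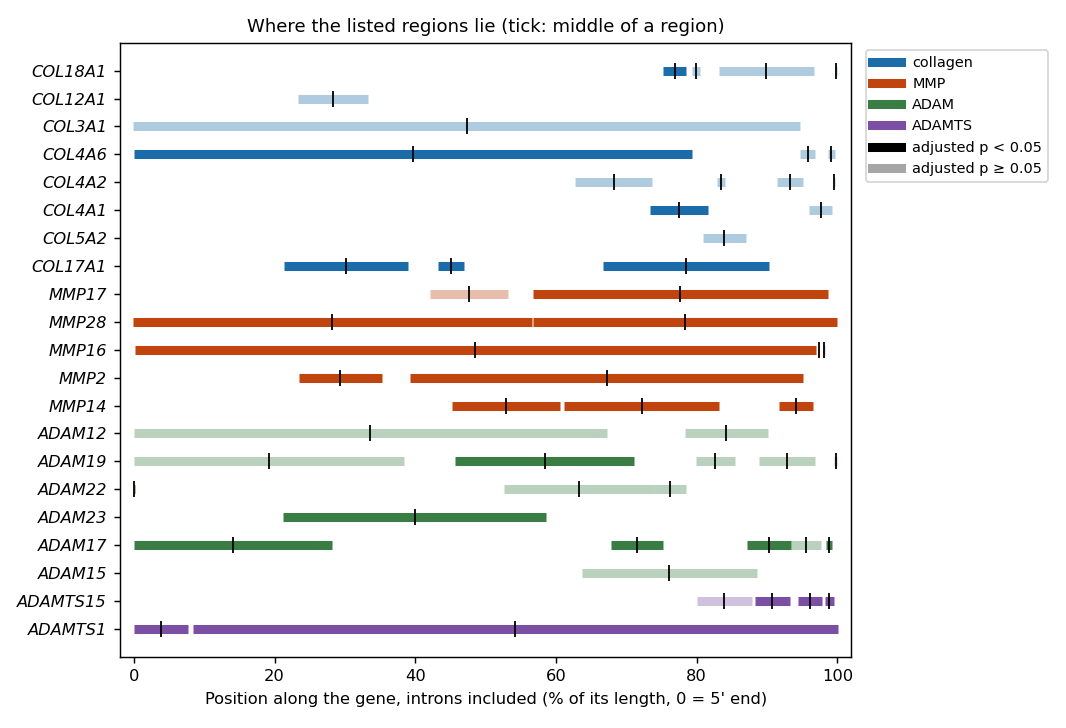
Extent of each listed region along its gene, from the 5' end at 0 to the 3' end, in percent of the gene length with introns, in full colour where the adjusted p was under 0.05. A tick marks the middle of a region, and in 6 genes (ADAM15, ADAMTS15, COL4A1, COL4A2, COL5A2, COL18A1) every region starts past the middle of the gene.

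Most short regions lay near the 3' end of the members. Of the 10 member peaks no wider than 1000 bases, taken in genes above 10000 bases, 9 lay in the last 10% of the gene. The exception was the ADAM22 peak at the start. Over all protein-coding genes 61.1% of such peaks lay in the last 10%, and with 10 peaks no difference from that share can be read. The 9 belonged to ADAM17, ADAM19, ADAMTS15 (2 peaks), MMP14, MMP16 (2 peaks), COL4A2 and COL18A1. A short ADAMTS1 region of 750 bases at the 5' end was not among the 10, because that gene has only 9655 bases. Over all 54 peaks of the members the median span was 5291 bases, and 3 regions exceeded 100000 bases, in MMP16, ADAM12 and COL4A6. Which exon, intron or untranslated region was enriched inside the longer regions was not analysed here.

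Genes that act on or with these proteins had a peak in 29 of 61 cases (47.5%, exact 95% interval 34.6 to 60.7). That interval holds the 40.1% of all protein-coding genes. ADAM substrates and regulators, taken as 1 list, had 8 of 11 (exact interval 39.0 to 94.0, which also holds 40.1%). All 8 had a peak at adjusted p under 0.05, a share of 72.7% beside 34.0% of all protein-coding genes. They include RHBDF1 at 3.76 and RHBDF2 at 8.78 for the iRhom partners of ADAM17, FRMD8, which holds that complex at the surface, at 16.3, and TSPAN14, a tetraspanin partner of ADAM10, at 42.7 (adjusted p of 1e-142). TSPAN17 and TSPAN5, of the same tetraspanin group, stood at 18.8 and 6.27, and the convertase FURIN, which removes the inhibitory part of many ADAMs and surface MMPs, at 5.02. Each of these fold enrichments is that of the gene's best peak. In the same list TSPAN15, TSPAN10 and BSG had no peak. Genes for collagen hydroxylation, folding and trimming had a peak in 14 of 24 cases (exact interval 36.6 to 77.9, again holding 40.1%). Among the 14, P3H4 stood at 22.6 and SERPINH1, the collagen chaperone, at 13.8. The other 10 had none, P4HA1, P4HA2, P4HA3, PLOD2 and PLOD3 among them. The lists were written by general knowledge with earlier results known, and their shares were not tested against those of the families.

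Collagen receptors had 1 of 10, DDR1, a receptor kinase for collagen, with 5 peaks. Its best fold enrichment was 2.51 (adjusted p of 0.0513). The smallest adjusted p of DDR1, 2.5e-33, belonged to a peak at 1.83. Of the inhibitors TIMP1 to TIMP4 and RECK, TIMP2 alone had peaks, 3 of them, with a best fold enrichment of 4.08. Crosslinking enzymes had 2 of 5 (LOXL2 at 4.42 and LOXL3 at 6.27), and ADAMTS-like genes 3 of 6, led by ADAMTSL3 at 10.7. Integrin and laminin genes, the other large matrix adhesion families, had a peak in 14 of 39 cases (35.9%, exact interval 21.2 to 52.8). Over all protein-coding genes the share was 40.1%, inside that interval. It also lay inside the exact intervals of the collagen receptors, inhibitors, crosslinking enzymes and ADAMTS-like genes. Of the integrin and laminin peaks, 82.4% had an adjusted p under 0.05, against 50.0% for the collagens and proteases and 74.4% of all listed peaks.

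Markers of the squamous cells themselves had a peak in 7 of 10 genes, where the share of all protein-coding genes was 40.1%. KRT5, KRT14, KRT6B, TP63, SOX2, DSG3 and DSP had one, and KRT6A, KRT17 and PERP had none. Fibroblast markers outside the collagen family had a peak in 1 of 10 (TWIST1, 8.78), with an exact interval of 0.25 to 44.5 that also holds 40.1%. PDGFRA, PDGFRB, THY1, DCN, LUM, FAP, POSTN, PRRX1 and TCF21 had none. Immune markers had 2 of 6 and endothelial markers 1 of 4. These were CD14 at 7.53 (adjusted p of 0.254), CSF1R at 12.5 (0.00741) and CDH5 at 10.0 (0.0776). Of these genes, CSF1R alone had a peak with an adjusted p under 0.05. These values stand beside the collagen counts, and their part in those counts was not tested.

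A name can mislead in this list. COL4A3BP, which the file gives with 3 peaks at 1.39, 2.51 and 11.3, is the older name of CERT1, a ceramide transfer protein, and is no collagen. It was left out because its name goes on after the digits.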

How the data were processed

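The members, gene lists and alternatives were chosen with earlier results of these data known. The deposited file is 1 list of peaks for 1 YTHDF3 RIP library against 1 input library, in hg38, per the submitters' processing notes. The deposited fold enrichment of a peak is a ratio, RIP against input on the scale of the authors' caller, per the file headers. They also give a deposited p-value and adjusted p-value on a linear scale, compared between the reads of these 2 libraries. A further deposited column repeats the p-value rounded. Per the labels' protocols, RNA of both samples was fragmented and primed with random hexamers. For the aligner, peak caller, thresholds and strand setting, nothing was given in the sources used here. The largest listed p was 0.049. Without read counts for the peaks the depth is unknown, and a fold enrichment has no interval.

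Starts were taken as counted from 0 and are printed counted from 1. Names were matched to RefSeq genes of GRCh38.p14 by symbol or older symbol, on the same chromosome within 100000 bases; 17321 of 18466 peaks matched. Pseudogenes ADAM5 and ADAM6 were left out of the 105 genes. The protein-coding gene MMP23B was left out too, because its name ends in a letter. Shares carry exact (Clopper-Pearson) 95% intervals. No test across samples was possible with 1 library of each kind. The rule for named genes allowed every member, with values for those leading by fold enrichment, number of peaks or p. Promoter sequences came from a RefSeq promoter table, and 67 of the 105 genes and 13 of the 21 with a peak were in the table used here. Matching and overlap code was tested on simulated data. Python 3.11.15, pandas 2.3.3 and scipy 1.17.1 were used.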

Additional observations from a re-analysis of the deposited data

How the results depend on the processing

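The count of 21 matrix genes with a listed peak was 15 with an adjusted p under 0.05 and 15 with at least the median fold enrichment, where all protein-coding genes had 34.0% and 28.7%. It was 0 among the 10% of peaks with the smallest p (7.99% of all protein-coding genes). It stayed at 21 when regions that overlap a peak of a different gene were dropped. With COL4A3BP counted too, an alternative chosen after seeing the data, it was 22. Of the 54 peaks, 27 had an adjusted p under 0.05. For collagen genes, 8 with a peak became 4 at an adjusted p under 0.05 and 5 with at least the median fold enrichment. The median best fold enrichment of 7.53 moved to 5.44 over peaks with an adjusted p under 0.05, to 4.39 in each gene's peak with the smallest p (6.27 for all protein-coding genes) and to 5.44 with the median over a gene's peaks (5.75 for all). At an adjusted p under 0.01, 10 of the 15 genes were left. In all, 19 recomputed values stayed within 1.5 times the count, or close to the median, that they replaced, and 7 did not. A stricter rule can only lower a count, but how far the counts fell and why the medians moved was not tested. Depth and expression were not measured. No paired analysis was possible because there is 1 library of each kind.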
